A study of Mus musculus with 36 samples.

Results

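The genes described here are the translation initiation factor genes of the mouse, chosen by symbol as those that begin with Eif and a digit. Of 58 such symbols among the 40205 genes counted, 54 were members and 4 were left out, namely the sex-linked Eif2s3x and Eif2s3y, Eif1ax, and the pseudogene Eif1-ps3. They were followed in RNA sequencing libraries of fetal mouse neural stem cells (NSCs) and of the extracellular vesicles (EVs) that these cells secreted. The cells were C57BL/6J NSCs, described in the study's methods as of the Ai14 reporter line, taken at gestational day 12.5 from the dorsal telencephalon, pooled by sex within a pregnancy and grown as neurospheres for passages 7 to 10. The 3 pregnancies, numbered here as sets 3, 4 and 5, each gave 1 culture per sex, and the 6 cultures were kept for 5 days with no ethanol, with 120 mg/dL (26 mM) or with 320 mg/dL (70 mM). Each culture and dose gave 1 EV and 1 cell library, so there were 36 libraries in 12 groups of 3, set by location (EV or cell), sex and dose, and no group carried a deletion or any agent besides ethanol. EVs were recovered from culture medium by filtration and ultracentrifugation, and the study's methods state that an integrity number could not be calculated for EV RNA.

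Translation initiation brings a ribosome to the start codon of an mRNA. The eIF2 complex delivers the initiator tRNA and is recharged by eIF2B, eIF1 and eIF1A help the small subunit to scan, eIF3 is the large scaffold on that subunit, and the eIF4F complex (the cap-binding eIF4E, the scaffold eIF4G and the helicase eIF4A) recruits the capped mRNA. Its control points include the kinases encoded by Eif2ak1 to Eif2ak4, which phosphorylate eIF2 under stress, and the 4E-BP proteins, encoded by Eif4ebp1 to Eif4ebp3, which hold eIF4E away from eIF4G until mTOR phosphorylates them.

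The 4E-BPs and eIF4G compete for the same surface of eIF4E through a shared short motif. The bases that encode it are shown because the genes that carry it ranged from 4.75 (Eif4ebp2) to -1.80 (Eif4g1) in the log2 differences between EVs and cells given below. Each line gives the mRNA sense strand of GRCm39 from the GENCODE vM39 canonical transcript, 5′ to 3′, with the 7 codons of the motif in capitals and 4 bases on either side.
Eif4ebp2: cattTATGACCGAAAGTTTCTGTTGgacc
Eif4ebp1: tatcTATGACCGGAAATTTCTGATGgagt
Eif4g1: gcgtTATGACAGAGAATTCCTGCTGggct
Eif4g3: gcagTATGACCGGGAGTTCCTACTGgaca
The capitals lie at chr10:61270848-61270868 on the minus strand for Eif4ebp2, and on the plus strand at chr8:27763365-27763385 for Eif4ebp1, chr16:20499971-20499991 for Eif4g1 and chr4:137883961-137883981 for Eif4g3, all within coding exons. Over these 21 bases Eif4ebp1 differed from Eif4ebp2 at 3 positions, and Eif4g1 and Eif4g3 each at 5. The form searched was Tyr, Asp or Thr, Arg or Lys, Lys or Glu, Phe or Glu, Leu, then Leu or Met, and 6 of 22263 canonical coding sequences (0.0270%) held it. This form allows just the residues found in the 4 genes printed and in Eif4enif1, so their matches were fixed by its choice. Eif4ebp3 was not among the genes looked up. In Eif4enif1, whose product 4E-T carries eIF4E into the nucleus, the codons were split by an intron and are not printed, and Eif4g2, an eIF4G relative that does not bind eIF4E, had no match.

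Totals were 959217 to 5509952 counts in EV libraries and 26566061 to 55282322 in cell libraries. The mitochondrial ribosomal RNA mt-Rnr2 took 17.3% to 30.3% of counts in cells, and Cdk8 took 5.92% to 18.7% in EVs. Levels are given as CPM, the counts scaled to a common library total of 1e6. Of the 12 neural stem cell markers listed, the defining genes Sox2 and Sox1 were listed at 0 in every library, even in cell libraries of 26566061 counts or more. Whether reads on such loci could be counted was not tested, so a 0 in every library does not show that a transcript was absent. The summed level of the list was 3188 to 6056 CPM of the library total in cells and 299 to 1220 in EVs. Oligodendrocyte lineage markers summed to 334 to 840 in cells and 90.4 to 458 in EVs, and astrocyte markers, with Aqp4 at 0 throughout, to 28.9 to 364 and 12.3 to 146. Neuron markers stood at 18.8 to 180 in cells and 12.2 to 49.3 in EVs, microglia and blood markers at 0.565 to 1.32 and 1.18 to 13.2, and endothelial markers at 0.399 to 2.63 and 0 to 5.17. These lists moved with location, and their part in the results below was not tested.

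Initiation factor genes took a smaller share of all counts in EVs than in cells, as plotted by library. Together the 54 genes held 0.0707% to 0.361% of counts in EV libraries (median 0.240%) and 0.396% to 0.653% in cell libraries (median 0.484%), so that the 2 locations did not overlap. The make-up of this share also differed. In cells Eif4g2 led, with 11.95% to 18.6% of all initiation factor counts (median 15.01%), and Eif4ebp2 contributed 0.286% to 0.595%. In EVs Eif4ebp2 led, with 5.80% to 27.1% (median 17.5%), followed by Eif4h at a median of 11.6% and Eif4g2 at 11.1%. Without Eif4ebp2 the remaining genes held 0.0590% to 0.295% of EV counts and 0.394% to 0.651% of cell counts. A share of bulk RNA cannot tell fewer vesicles or cells with a transcript from less of it in each.

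**Figure D1:**
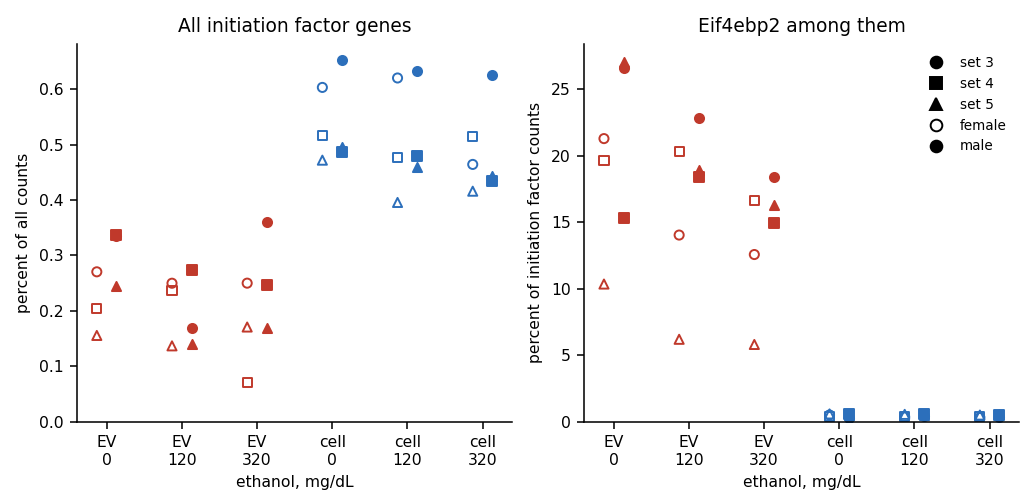
Left, percent of all counts on the 54 initiation factor genes, and right, percent of those counts on Eif4ebp2, against location and ethanol dose (mg/dL). Each point is 1 library, open for female and filled for male cultures, with the pregnancy set given by its shape. All 18 EV libraries lie at or below 0.361% and all 18 cell libraries at or above 0.396%, while Eif4ebp2 takes 5.80% or more in EVs and at most 0.595% in cells.

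To ask which initiation factors set EVs apart from their cells of origin, EV and cell libraries were compared by edgeR's quasi-likelihood test with terms for sex and dose. This fit takes the 3 libraries of a culture at each location as independent, although the independent units are the 6 cultures. Differences are log2 (EV minus cell) after TMM scaling, and levels are CPM on that scale. Of 54 members, 50 passed the filter on low counts. Among these 44 were called at a Benjamini-Hochberg adjusted p under 0.05, where 80.5% of the 15281 genes tested were called. Split by direction, 36 were lower in EVs and 8 higher, against 42.2% and 38.4% of all genes tested. The split was 42 lower and 5 higher under library totals (60.7% and 22.5% of all genes), 35 and 12 of 54 in DESeq2 (20.3% and 54.5%), and 29 and 12 of 46 after thinning all libraries to the same total (39.4% of all genes each way). With the doses of a culture summed and culture as a block, 36 of 52 members were lower and 7 higher, where 13779 of 19677 genes were called. The median difference of the 50 was -0.95, and that of all genes tested was -0.08. Scaling by library totals moved the median of all genes to -0.88 and that of the members to -1.78, so that the members lay 0.87 below the median of all genes under TMM and 0.90 below it under library totals. Eif1, Eif1b, Eif2b4, Eif3k, Eif4ebp1 and Eif4g3 were not called. In 34 members EVs were lower than cells in all 6 cultures and in 6 members higher in all 6, against 33.2% and 29.3% of all genes tested. The CPM of the 18 EV and the 18 cell libraries did not overlap for 25 of the 50, of which 22 were lower and 3 higher, against 23.8% of all genes tested.

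**Figure D2:**
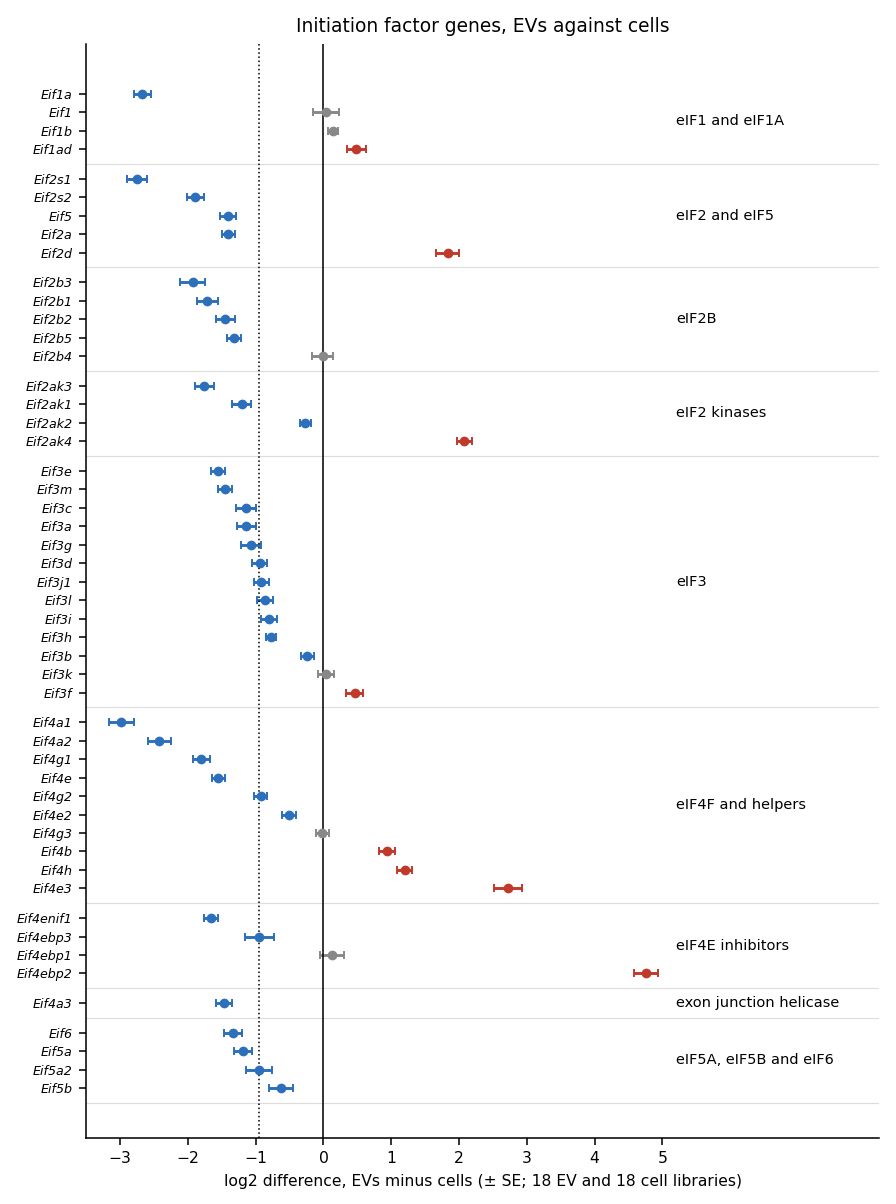
Log2 difference (EVs minus cells) with its standard error for the 50 initiation factor genes tested, from 18 EV and 18 cell libraries, grouped by role. Blue points were lower in EVs, red higher and grey not called, and the dotted line marks the median of -0.95. Eif4ebp2 at 4.75 lies farthest right.

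Eif4ebp2 (chr10:61264032-61288567, minus strand) showed the largest difference of any member. Its level was 134 to 906 CPM in EVs (median 492) and 12.96 to 20.6 CPM in cells (median 17.6). Every EV library thus exceeded every cell library, although the cell libraries were about an order of magnitude deeper. On the TMM scale EVs were 27.0-fold higher, a log2 difference of 4.75 ± 0.18 (SE, adjusted p = 5.08e-23 in edgeR, n = 18 and 18 libraries of 6 cultures). The size of this fold is tied to the scaling, as library totals moved the median of all genes tested from -0.08 to -0.88. Among the 6 cultures the difference was 3.29 to 5.59. Eif4ebp2 has a 3′ untranslated region of 5544 bases, and neither a shared 75-base window with another gene's transcripts nor an exonic overlap with another gene was found in the annotation. Its 3 relatives among the eIF4E inhibitors did not follow it. Eif4ebp1 (chr8:27750350-27805206) ran from 13.3 to 88.3 CPM in EVs (median 34.4) and from 21.4 to 61.9 in cells (median 35.7), and its difference of 0.13 ± 0.18 was not called (adjusted p = 0.516). Eif4ebp3, at 2.66 CPM or less in EVs, was lower there by 0.94 ± 0.21 (SE) on the log2 scale. Eif4enif1 was lower by 1.66 ± 0.10, with 5.09 to 16.0 CPM in EVs and 26.7 to 40.02 in cells.

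Within eIF4F the core subunits were lower in EVs, and 3 further genes were higher. Eif4a1 (chr11:69557762-69563249, minus strand), the main helicase, fell most of all members, from 88.3 to 441 CPM in cells (median 222) to 15.3 to 39.7 in EVs (median 31.2). Its log2 difference was -2.98 ± 0.19. Of the 75-base windows of Eif4a1, 64.02% also occur in transcripts of other genes, mostly Eif4a-ps4, so reads could be split between them. Its relative Eif4a2 stood at 110 to 527 CPM in cells and 22.9 to 45.9 in EVs (-2.42 ± 0.17). The scaffold Eif4g1 was at 121 to 302 CPM in cells and 33.9 to 74.0 in EVs (-1.80 ± 0.13), and the cap-binding Eif4e at 52.4 to 102 and 19.4 to 32.8 (-1.55 ± 0.09). None of these 4 genes overlapped between locations. Eif4g3 was near equal in level on the TMM scale, at medians of 69.1 CPM in EVs and 71.3 in cells (-0.02 ± 0.10, not called). The sign of its difference changed when all libraries were thinned to the smallest total. The 3 genes that were higher in EVs are accessory members. Eif4e3 (chr6:99602081-99643784, minus strand), an atypical cap-binding relative of Eif4e, was scarce in cells at 0.634 to 1.66 CPM and stood at 2.31 to 21.6 in EVs (2.72 ± 0.20). Eif4h and Eif4b encode RNA-binding proteins that stimulate the eIF4A helicase. Eif4h was at 141 to 439 CPM in EVs (median 320) and 114 to 168 in cells (median 132), a difference of 1.196 ± 0.11. Eif4b was at 136 to 446 in EVs and 92.9 to 178 in cells, a difference of 0.94 ± 0.12 that under library totals was 0.20 and not called (adjusted p = 0.296). Both overlapped between single libraries and were higher in EVs in all 6 cultures. Exons of Gm53915 on the opposite strand cover 38.7% of the Eif4b transcript, and whether the counting used strand is not given in the sources used here.

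**Figure D3:**
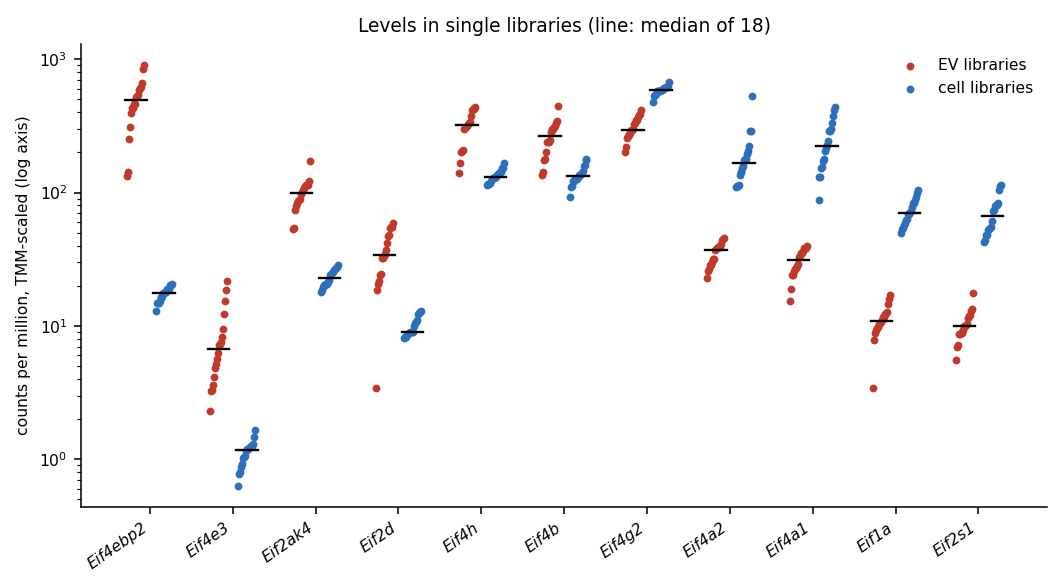
TMM-scaled CPM on a log axis for 11 initiation factor genes, with 1 point for each of 18 EV (red) and 18 cell (blue) libraries and black lines at the medians. The EV points lie above all cell points for Eif4ebp2, Eif4e3 and Eif2ak4, and below all cell points for Eif4g2, Eif4a2, Eif4a1, Eif1a and Eif2s1.

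The eIF2 branch showed the same kind of split. Eif2s1 (chr12:78907681-78935018), which encodes the alpha subunit that the stress kinases phosphorylate, was at 42.2 to 115 CPM in cells (median 66.8) and 5.54 to 17.7 in EVs (median 9.93), a difference of -2.75 ± 0.15. Eif2s2, the beta subunit, differed by -1.89 ± 0.13, and Eif5, the GTPase activator of eIF2, by -1.41 ± 0.12. Eif2a, placed in this group by its symbol, differed by -1.41 ± 0.09. Eif2d (chr1:131080893-131115395), whose product can place tRNA on the ribosome without eIF2, was the exception at 3.39 to 58.7 CPM in EVs (median 34.0) and 8.09 to 12.9 in cells (median 9.06). Its difference was 1.83 ± 0.16, and 1 EV library lay below the cell range. Of the 5 eIF2B subunits 4 were lower in EVs, where 42.2% of all genes tested were. These 4 had differences from -1.93 to -1.32, and Eif2b3 led at -1.93 ± 0.19. Eif2b4, the remaining subunit, did not pass the test at -0.01 ± 0.16. Among the 4 eIF2 kinases, Eif2ak4 (chr2:118218950-118305868), which encodes GCN2, the sensor of uncharged tRNA, was at 53.4 to 173 CPM in EVs (median 99.0) and 18.04 to 28.5 in cells (median 22.9). That was 4.22-fold higher in EVs, a log2 difference of 2.08 ± 0.11 with no overlap. The other three kinase genes were lower: Eif2ak3, encoding PERK of the endoplasmic reticulum, by 1.76 ± 0.15, Eif2ak1 by 1.205 ± 0.14 and Eif2ak2, encoding the double-stranded RNA sensor PKR, by 0.27 ± 0.08. The Eif2ak2 difference lost its call without set 5 (-0.13, adjusted p = 0.241).

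Of the 14 eIF3 genes 13 were tested, 11 were lower in EVs and 1 was higher, with a median of -0.92. Over all genes tested 42.2% were lower and 38.4% higher, with a median of -0.08. Of the eIF3 genes Eif3e was lowest at -1.56 ± 0.11. Eif3a, the largest subunit, was at 195 to 329 CPM in cells and 54.3 to 178 in EVs (-1.14 ± 0.14). Eif3f was higher by 0.46 ± 0.13 (adjusted p = 0.00164), but this difference turned to -0.28 under library totals and -0.15 without the filter on low counts. It also lost its call without set 3 (0.27, adjusted p = 0.115). Eif3b, lower by 0.24 ± 0.10, lost its call when EV and cell libraries were paired by culture and dose (replicate block, adjusted p = 0.0636) and without set 3 or 4. The genes grouped by symbol as eIF1 and eIF1A were uneven. Eif1a fell by 2.67 ± 0.13, from 49.6 to 104 CPM in cells to 3.39 to 17.2 in EVs, with no overlap. Eif1 and Eif1b were not called at 0.04 ± 0.19 and 0.14 ± 0.07. Eif1ad, at 0.49 ± 0.15 (adjusted p = 0.00271), turned to -0.30 under library totals and -0.12 without the filter, and 28.0% of its transcript is covered by Banf1 exons on the opposite strand. The genes of eIF6, which keeps the large ribosomal subunit from joining early, of eIF5A, which helps elongation, and of eIF5B, which joins the subunits, were all lower in EVs: Eif6 by 1.34 ± 0.13, Eif5a by 1.19 ± 0.13, Eif5a2 by 0.95 ± 0.19 and Eif5b by 0.62 ± 0.18. Eif5b lost its call without set 3 (-0.39) or set 4 (-0.41). Eif4a3, the helicase of the exon junction complex, was lower by 1.47 ± 0.12.

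The order of the members by level, taken as CPM per kilobase of canonical transcript, changed between locations. In cells Eif4a1 was highest at a median of 125 CPM per kb, followed by Eif3e at 79.3. In EVs Eif4h was highest at 125 and Eif4ebp2 second at 81.6, where Eif4ebp2 ranked 48th of the 53 members with a transcript in cells and Eif4h the 7th. At the other end Eif4a3l1 and Eif4e1b had at most 1 count in any EV library and 3 in any cell library, and Eif3j2 and Eif2c5 had at most 5 in any EV library and 25 in any cell library. Of these 4 genes, untested between EVs and cells, Eif3j2 shares 89.9% of its 75-base windows with other genes, chiefly Eif3j1. Eif2c5 has no entry by that symbol in the annotation, is a member by symbol alone and was placed in none of the role groups above. In 17 members over 20% of the windows are shared, and 15 share none. Most of the Eif4ebp3 transcript (66.1%) lies in exons shared with Maskbp3 on the same strand, so its level is uncertain too. Exons of other genes on the opposite strand cover over 20% of the transcript in Eif1, Eif1ad, Eif2ak1, Eif2b1, Eif3d, Eif3j1, Eif3m, Eif4a1, Eif4a2, Eif4b, Eif4ebp1, Eif5a, Eif5b and Eif6 (highest in Eif6 at 45.5%), and their values are uncertain to that extent.

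Over the 50 genes tested, Spearman's rho of the log2 difference was 0.05 with transcript length, 0.02 with the length of the 3′ untranslated region, 0.33 with GC content, -0.17 with coding length and -0.12 with the number of exons. Over 13002 tested genes with a coding sequence the same 5 values were 0.14, 0.05, 0.27, 0.13 and 0.05, of which the last 2 have the opposite sign. With the median level in cells rho was -0.32 over the members and -0.46 over the 13002 genes. The same cell values are subtracted in the log2 difference, which by itself pulls this rho below 0, so it shows no relation of its own. These are descriptions across genes that share the same 36 libraries. Median GC was 51.7% in the 8 genes that were higher in EVs 48.6% in the 36 that were lower and 54.4% in the 6 not called.

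A list of 35 other translation genes was read beside the members. All 35 were tested, and 10 were higher and 21 lower in EVs, with a median of -0.46. Of all 15281 genes tested 38.4% were higher and 42.2% lower, with a median of -0.08. The share called in either direction was 88.6% in the list and 80.5% over all genes tested. The poly(A)-binding protein genes Pabpc1 and Pabpc4, which bridge the mRNA tail to eIF4G, were higher by 1.34 ± 0.14 and 1.91 ± 0.19. Of the mTOR pathway that acts on the 4E-BPs, Rptor (1.33 ± 0.13) and Tsc1 (1.41 ± 0.10) were higher, whereas Mtor (-0.46 ± 0.08), Rheb (-1.74 ± 0.13) and Rps6kb1 (-1.46 ± 0.07) were lower. Ppp1r15b, whose product directs dephosphorylation of eIF2, was higher by 1.68 ± 0.12, whereas its relative Ppp1r15a was lower (-1.16 ± 0.29). Ddx3x, an RNA helicase of initiation, was lower by 2.37 ± 0.09.

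The next comparisons asked whether ethanol shifted initiation factor transcripts in EVs or in cells. Each dose was set against control within cultures (culture as a block), and the control libraries serve both doses. No member passed the adjusted threshold at either dose in either location. In EVs 0 of 48 members were called at 120 mg/dL, where 0.00842% of all 11880 genes tested were, and 0 of 48 at 320 mg/dL, where 0.0842% were (0.0168% higher and 0.0673% lower). In cells 0 of 51 were called at 120 mg/dL (background 0%) and 0 of 51 at 320 mg/dL (background 0.0393%, of which 0.0225% higher and 0.0169% lower). At an unadjusted p under 0.05, edgeR gave 4 members in EVs at 120 mg/dL (6.26% of all genes tested), 6 in EVs at 320 mg/dL (11.9%), 0 in cells at 120 mg/dL (2.5%) and 7 in cells at 320 mg/dL (8.57%). The 4 and 6 of 48 members in EVs were thus close to the share over all genes. DESeq2 called 4 members at the adjusted threshold in EVs at 320 mg/dL and 0 in the other three comparisons. The median difference of the members was -0.04 and 0.07 in EVs and -0.04 and -0.05 in cells at the lower and higher dose. Their standard errors had a median of 0.15 in EVs and 0.09 in cells. The 95% interval reached a 2-fold difference for 1 and 3 of the 48 genes in EVs, and for 1 and 0 of the 51 in cells.

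**Figure D4:**
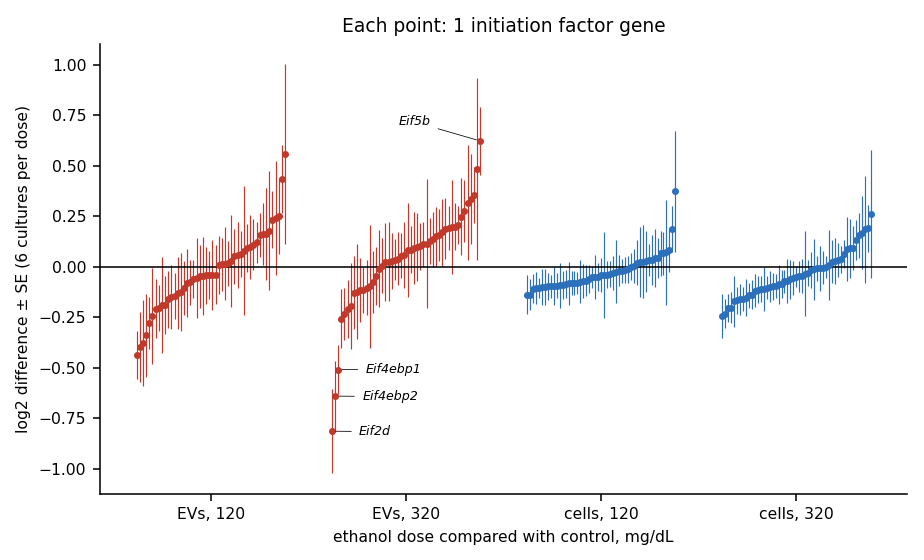
Log2 difference from control with its standard error for each initiation factor gene, in order of size, in EVs (red, 48 genes) and cells (blue, 51 genes) at 120 and 320 mg/dL ethanol, from 6 cultures per dose. No gene passed the adjusted threshold in edgeR. Eif2d, Eif4ebp2 and Eif4ebp1 lie lowest and Eif5b highest in EVs at 320 mg/dL.

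The 4 genes with the smallest p in EVs at 320 mg/dL were both abundant 4E-BP genes, Eif2d and Eif5b. For Eif4ebp1 the lowest, median and highest of 6 EV libraries were 22.1, 44.0 and 88.3 CPM in controls, 13.3, 30.2 and 61.9 at 120 mg/dL and 13.6, 28.6 and 62.8 at 320 mg/dL. Although the dose groups overlapped, each of the 6 cultures was lower at 320 mg/dL than in its own control. The log2 difference was -0.51 ± 0.12 (SE), with a 95% interval of -0.77 to -0.24 and an adjusted p of 0.129 in edgeR. For Eif4ebp2 the same values were 252, 599 and 906 CPM in controls, 134, 528 and 616 at 120 mg/dL and 142, 428 and 583 at 320 mg/dL. All 6 cultures were again lower at the higher dose, by 0.64 ± 0.17 (SE) on the log2 scale (95% interval of the difference -1.02 to -0.26, adjusted p = 0.146 in edgeR). In cells the 2 genes differed by 0.13 ± 0.10 and -0.12 ± 0.08 at this dose.

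Eif2d in EVs was at 32.3, 45.0 and 55.4 CPM in controls, 21.6, 34.6 and 58.7 at 120 mg/dL and 3.39, 22.4 and 53.8 at 320 mg/dL (lowest, median and highest). It was lower in all 6 cultures at the higher dose, with a difference of -0.81 ± 0.21 (95% interval -1.28 to -0.35, adjusted p = 0.136 in edgeR). The lowest value rests on 2 counts in the female EV library of set 4, which also had the smallest share of initiation factor counts (0.0707%). Eif5b, the factor that joins the ribosomal subunits, moved the other way in 5 of 6 cultures. It was at 11.5, 18.4 and 36.2 CPM in control EVs, 14.7, 22.2 and 53.6 at 120 mg/dL and 15.8, 27.7 and 58.4 at 320 mg/dL, and the difference at 320 mg/dL was 0.62 ± 0.17 (95% interval 0.25 to 1.00, adjusted p = 0.146 in edgeR). Rev1 exons on the opposite strand cover 24.9% of the Eif5b transcript. In cells the differences of Eif2d and Eif5b at this dose were -0.01 ± 0.06 and -0.09 ± 0.10.

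Single-gene exact tests over the 6 cultures gave the smallest p that 6 pairs allow (0.03125, two-sided sign-change permutation test, unadjusted, run for every member tested at each dose and location) for Eif4ebp1, Eif4ebp2 and Eif2d, and p = 0.0938 for Eif5b. Over all members that floor was reached by 5 of 48 in EVs at 320 mg/dL, the others being Eif4b and Eif4e (8.37% of all genes tested), and 0 of 48 at 120 mg/dL (3.27%), and by 5 of 51 in cells at 320 mg/dL (4.23%) and 1 of 51 at 120 mg/dL (2.83%). These 4 genes were past the adjusted threshold in DESeq2, which called 267 of 29604 genes (0.902%) in this comparison, and in edgeR without set 4, which called 110 of 11801 (0.932%). In both fits Eif5b was higher and the other three lower. Over 9 alternative settings the adjusted p ran from 0.000716 to 1.00 for Eif2d, 0.0401 to 1.00 for Eif4ebp1, 0.00243 to 1.00 for Eif4ebp2 and 0.0303 to 1.00 for Eif5b, and the sign of all 4 differences stayed the same. At 120 mg/dL, against the same control libraries, the differences in EVs were -0.44 ± 0.12 for Eif4ebp1, -0.40 ± 0.17 for Eif4ebp2, -0.34 ± 0.20 for Eif2d and 0.44 ± 0.17 for Eif5b, with none called, and the 2 doses were not tested against each other.

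**Figure D5:**
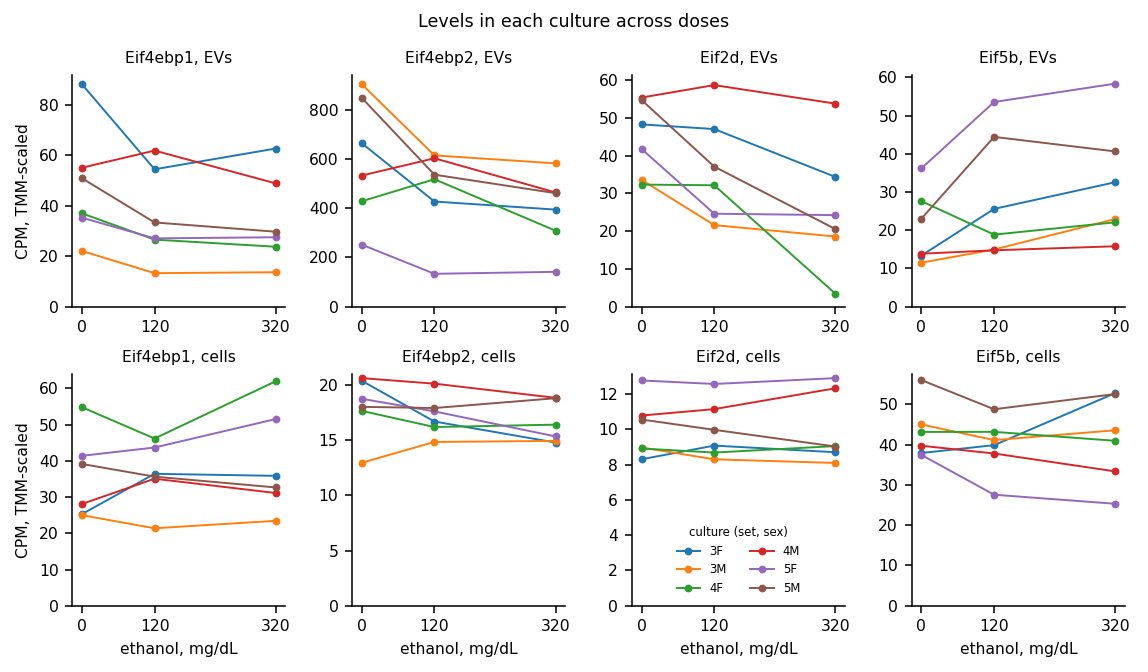
TMM-scaled CPM of Eif4ebp1, Eif4ebp2, Eif2d and Eif5b in EVs (top) and cells (bottom) against ethanol dose (0, 120 and 320 mg/dL), with 1 line for each of 6 cultures named by set and sex. In EVs all 6 lines end below their start for Eif4ebp1, Eif4ebp2 and Eif2d, and 5 of 6 end above it for Eif5b.

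In cells at 320 mg/dL the smallest p values belonged to eIF3 subunits. Eif3b differed by -0.23 ± 0.07 (adjusted p = 0.361 in edgeR), Eif3d by -0.20 ± 0.07 and Eif3c by -0.20 ± 0.08, each lower in 5 of 6 cultures, and Eif3a by -0.16 ± 0.06, lower in all 6. At 120 mg/dL the smallest p values belonged to Eif4e2 (-0.10 ± 0.05), Eif4g1 (-0.14 ± 0.08) and Eif4a3 (-0.10 ± 0.06), of which Eif4g1 was lower in all 6 cultures. None of the 35 other translation genes was called at either dose in EVs or cells.

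Whether ethanol changed the EV:cell ratio was tested as an interaction of location and dose within pairs of libraries. At each dose 0 of 51 members were called, where 0.00534% of 18728 genes were called at 120 mg/dL and 0% at 320 mg/dL. DESeq2 also gave 0 at both doses, and an unadjusted p under 0.05 was reached by 0 and 1 members in edgeR (0.902% and 1.2% of all genes). A fit that also matched the ratios by culture called 0 members at each dose, and 2 and 0 of 18728 genes at 120 and 320 mg/dL. In the fit without this matching the standard errors were wide, with medians of 0.38 and 0.37 at the lower and higher dose. Its 95% interval reached a 2-fold change of the ratio in 20 and 23 of the 51 genes. Eif2d had the smallest p at 320 mg/dL with a change of -0.89 ± 0.41, and Eif5b changed by 0.66 ± 0.43 and Eif2c5 by -1.39 ± 0.73, all with an adjusted p of 1.00 in edgeR. The Eif2c5 value rests on at most 5 counts in any EV library. For Eif4ebp2 the change was -0.54 ± 0.48. At 120 mg/dL the smallest p values belonged to Eif5b (0.52 ± 0.44), Eif4ebp1 (-0.51 ± 0.49) and Eif5a2 (-0.59 ± 0.57).

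Female and male cultures were compared separately in EVs and in cells, adjusting for dose, which takes the 3 libraries of a culture as independent. In EVs 3 of 48 members were called, where 11.1% of 11037 genes were (7.03% higher and 4.06% lower in females), and 13 had an unadjusted p under 0.05, where 31.1% of all genes did. Eif4h was at 141 to 313 CPM in female EVs (median 210) and 328 to 439 in male EVs (median 415), with no overlap, a difference (female minus male) of -0.63 ± 0.17 (SE, adjusted p = 0.0274 in edgeR). Eif3l, a subunit of eIF3, was at 27.2 to 44.4 CPM in females and 39.8 to 64.9 in males (-0.37 ± 0.12). Eif4enif1 was at 5.09 to 16.0 CPM in females and 7.87 to 11.8 in males (0.51 ± 0.15). Each of the 3 calls was lost without set 4, without set 5 and when the doses of a culture were summed to 3 libraries per sex, where 0 members were called, and Eif4enif1 was also lost without set 3 and in DESeq2 (adjusted p = 0.0556), which called 4 members against 9.42% of all genes. With the pregnancy as a block, which pairs the female and male culture of a litter, 11 members were called in EVs, 6 higher and 5 lower in females. Without set 3 the calls numbered 6, all lower in females. Over all genes these fits called 27.1% and 23.1%, so that the members' share was below it in both.

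In cells 0 of 50 members were called by sex, where 5.83% of 17052 genes were (3.2% higher and 2.63% lower in females), with 5 at an unadjusted p under 0.05 in edgeR (22.3% of all genes) and 3 calls in DESeq2 (6.79% of all genes). Eif2ak3 came closest at -0.54 ± 0.16 (adjusted p = 0.0556 in edgeR), followed by Eif3c at 0.28 ± 0.09 and Eif4ebp1 at 0.51 ± 0.16. With the pregnancy as a block 5 members were called, 3 higher and 2 lower in females, and these 3 genes were among them, where 17.3% of all genes were called. With the doses summed the count was 0. In cells the Eif4h levels were 114 to 152 CPM in females and 117 to 168 in males. The sex difference was not tested between EVs and cells.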

How the data were processed

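RNA was sequenced from 18 EV and 18 cell samples by the authors, who depleted ribosomal RNA, removed adapters and duplicate reads, used STAR to align to mm39 and HTSeq to count reads per gene. The deposited values are whole counts per gene and library, without normalization, and were used as deposited. The strand setting and the annotation of the counting are not given in the sources used here. Counts per library are the depth, and EV values carry the larger counting error. The submitters' processing notes also name Trimmomatic and DESeq2 2.11.40.6.

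Groups were taken from the sample labels. No 2 libraries of a group agreed within sampling noise. Nothing was left out. Counts were analysed with edgeR 4.0.16 in R 4.3.3 (filterByExpr with minimum count 10 and minimum total count 15, TMM, quasi-likelihood F test, Benjamini-Hochberg adjusted p under 0.05 over all genes tested), with DESeq2 1.42.0 as an alternative, and with Python 3.11.15, pandas 2.3.3, numpy 2.4.6, scipy 1.17.1 and matplotlib 3.10.9. A prior count of 1 entered log2 CPM. The EV against cell comparison had sex and dose as terms, ethanol doses were compared with the culture as a block, the EV:cell ratio with the pair of libraries as a block, and sexes with a term for dose. The tests were tested on simulated data. Transcripts were taken from GENCODE vM39 on GRCm39 by symbol, which matched 53 of the 54 members, and shared 75-base windows were counted over all its transcripts.

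An EV library and the cell library of its culture at that dose, and the female and male culture of a pregnancy, form pairs by origin. Deviations from the condition mean had a median correlation of 0.0719 between an EV and its cell library (4 of 18 pairs over 0.1), and of 0.191 and 0.210 in EVs and 0.715 and 0.621 in cells between a dose and its control. The 6 cultures and 3 pregnancies are the independent units, and p-values over libraries of the same culture measure partly technical spread.

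The genes named are the 5 called members with the largest difference in each direction between EVs and cells, 3 in each direction for the other comparisons (with the 3 smallest p where fewer were called), the 2 highest and lowest by level, and 10 by role. Other genes were named after their values were seen. The members and gene lists were chosen with earlier results of these data known. Alternatives were median-of-ratios factors, library totals, no filter, leaving out each pregnancy, adding or removing blocks, summing doses, control libraries or the compared doses alone, thinning every library to the smallest total of 959217 counts, and leaving out the 6 EV libraries with the lowest totals.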

Additional observations from a re-analysis of the deposited data

Results flagged for a closer look

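In groups of 6 cultures at 1 dose and location, 30 groups were examined for a sample far from the others by Dixon's test, which chance passes in about 1 of 20 groups. Eif4ebp2 in EVs at 120 mg/dL was low in the female culture of set 5, at 7.06 log2 CPM against a group median of 9.04. Eif4ebp2 in control cells was low in the male culture of set 3, at 3.70 log2 CPM against a median of 4.204. Eif4ebp1 in cells at 120 mg/dL was low in the male culture of set 3, at 4.42 log2 CPM against a median of 5.17.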

How the results depend on the processing

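Between EVs and cells 41 to 49 members were called under the 12 alternatives, 42 to 43 when 1 pregnancy was left out. Under library totals the median of the members was -1.78, and differences changed sign for Eif1 (-0.70), Eif1ad (-0.30), Eif1b (-0.65), Eif3f (-0.28), Eif3k (-0.74) and Eif4ebp1 (-0.64). Without the filter on low counts the same genes gave -0.58, -0.12, -0.49, -0.15, -0.57 and -0.49. Thinned to the smallest total, Eif2ak2 (0.16), Eif3b (0.21), Eif4e2 (0.0017) and Eif4g3 (0.36) changed sign and Eif5b was not called (-0.19), and Eif2b4 changed sign without set 3 (0.39, adjusted p = 0.0134 in edgeR), with -0.18 without set 5. The cause was not tested. With the pair of libraries as a block 43 were called, and no call but that of Eif3b changed. In EVs at 320 mg/dL DESeq2 called 4 members and edgeR without the filter 1, and leaving out 1 pregnancy gave 0 to 4. By sex, EV calls numbered 0 under library totals, 0 without the filter, 0 with doses summed, 11 with the replicate block and 0 to 6 without 1 pregnancy, and cell calls numbered 3 in DESeq2, 1 under library totals, 1 without the filter, 5 with the replicate block and 0 to 2 without 1 pregnancy. At 120 mg/dL in EVs, at both doses in cells and at both doses for the ratio, 0 members were called under every alternative run, including those that added or removed the replicate block. For the ratio, whose standard errors had a median of 0.37 or more, this says nothing about stability. EV depth limits low members such as Eif5a2, Eif4ebp3 and Eif4e3, which had at most 6, 9 and 32 counts in any EV library.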

Other observations

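The level of Eif4ebp2 in EVs differed among cultures at every dose. The female culture of set 5 had 252, 134 and 142 CPM at 0, 120 and 320 mg/dL, and the male culture of set 3 had 906, 616 and 583 CPM. The range over the 6 cultures in cells was 12.96 to 20.6 CPM. The female culture of set 5 also had the highest Eif5b levels in EVs, at 36.2, 53.6 and 58.4 CPM, and the lowest in cells at 120 and 320 mg/dL, at 27.5 and 25.3 CPM.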
